A study of Mus musculus with 12 samples.

Results

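The data describe 51 genes of monocytes and macrophages in RNA from sorted splenic regulatory T cells (Treg), read on 12 single-dye Agilent arrays. A gene counted as measured if a probe of its name passed the scanner's test of being well above background on each of the 3 arrays of any group. By that rule 45 of the 51 genes, through 55 probes, were measured, of 18560 genes and 26261 probes that passed in all, and 39 of the 45 were well above background on all 12 arrays. The list includes genes chosen by their signal on these same arrays, for being higher in the knockout than in wild type. The knockout against wild type comparison of the 45 genes is therefore given as a description with no test, while activation and age of the animals were tested. These tests use the same arrays as the choice: a gene picked for a high signal in KO or a low one in WT at 0 h tends to fall from the first and to rise from the second, so the activation tests are not independent of it.

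All cells came from spleens of female C57BL/6 mice. WT stands for cells of mice with intact CD83, 9 weeks old, and KO for cells of mice labelled CD83cKO, a conditional deletion of the surface protein CD83 whose Cre driver the labels do not name. Cells were taken non-activated (0 h) or 3 h into stimulation with anti-CD3 and anti-CD28 antibodies, which act through the antigen receptor of T cells and its co-receptor. Each of the 4 groups held 3 arrays. Of the 6 KO arrays, 4 were from 10-week and 2 from 21-week mice, 1 of these at each time. The series names 6 mice for 12 arrays and the labels do not say which arrays came from which mouse, so arrays of different times may share a mouse and p-values measure the spread between these arrays, which may be technical. All KO arrays lay on 1 slide and each WT group on a slide of its own. Genotype and slide cannot be told apart, nor can time and slide in WT. No group was held for 3 h without the antibodies, so stimulation and the 3 h that passed cannot be told apart either. Activation below stands for 3 h against 0 h. In the values below the 21-week array is always the last of the 3 in KO.

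The labels were checked against defining genes. Cd83 was lower in KO at both times, with 2.36, 2.17 and 2.39 in WT against 0.75, 0.29 and 0.23 in KO at 0 h (log2 signal relative to the 75th percentile of the array, the scale of all levels here). The probe for Foxp3, the defining transcription factor of Treg, was well above background on 0 of 6 WT arrays and 6 of 6 KO arrays, so it does not bear out the Treg label in WT. The 10 T cell markers and the other 7 Treg markers were well above background on all 3 WT arrays at 0 h. The 21-week arrays stood apart: the median of the 10 T cell markers, relative to the WT mean at 0 h, was -1.79 and -2.88 on them, against -0.26 to -0.74 on the 4 arrays from 10-week mice. Where a gene's values are printed for all 4 groups, activation calls that change without these arrays are given beside it.

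Monocytes and macrophages are phagocytes of the myeloid lineage. They depend on the growth factor CSF1 and its receptor Csf1r, recognise microbes and dying cells through scavenger and pattern receptors, digest them in lysosomes and make the C1q subunits of complement. In the spleen, macrophages clear aged red cells and trap blood-borne particles. T cells are not known to make most of these transcripts. In bulk RNA, fewer cells of a type and less RNA per cell cannot be told apart, so a level here is a property of the sorted preparation as a whole.

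The promoters of these genes were read for the PU box GAGGAA, a core sequence bound by Spi1 and its relatives, the factors that direct myeloid genes. On either strand it was present in 17 of 44 promoters of listed genes (38.6%), against 28.3% of all 32851 promoters in the RefSeq table (GRCm38.p6), each window being 300 bases. The C/EBP-type motif TTGCNNAA was present in 7 of 44 (15.9%) and 10.8%. The 44 promoters belong to 37 of the listed genes; neither motif holds the other. The 250 bases before the start are shown for 4 members that fell on activation in both genotypes and were picked for holding the box, with each PU box in capitals (TTCCTC is the same box on the other strand).
Mrc1, chr2:14229164-14229413, plus strand: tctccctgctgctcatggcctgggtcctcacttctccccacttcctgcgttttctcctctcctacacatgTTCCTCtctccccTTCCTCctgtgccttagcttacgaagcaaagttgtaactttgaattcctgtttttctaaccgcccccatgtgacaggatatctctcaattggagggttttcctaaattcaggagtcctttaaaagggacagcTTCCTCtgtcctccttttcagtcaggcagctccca
Aif1, chr17:35176053-35176302, minus strand: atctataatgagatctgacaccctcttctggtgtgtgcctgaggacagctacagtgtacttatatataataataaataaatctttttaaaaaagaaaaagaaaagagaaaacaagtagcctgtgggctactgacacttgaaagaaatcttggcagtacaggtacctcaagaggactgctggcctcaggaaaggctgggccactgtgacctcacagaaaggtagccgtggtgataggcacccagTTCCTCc
C1qb, chr4:136886201-136886450, minus strand: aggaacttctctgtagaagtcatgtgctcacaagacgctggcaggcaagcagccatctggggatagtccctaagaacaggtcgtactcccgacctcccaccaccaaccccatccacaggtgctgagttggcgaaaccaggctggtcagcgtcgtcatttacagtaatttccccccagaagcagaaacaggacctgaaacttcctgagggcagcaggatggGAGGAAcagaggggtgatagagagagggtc
C1qc, chr4:136892915-136893164, minus strand: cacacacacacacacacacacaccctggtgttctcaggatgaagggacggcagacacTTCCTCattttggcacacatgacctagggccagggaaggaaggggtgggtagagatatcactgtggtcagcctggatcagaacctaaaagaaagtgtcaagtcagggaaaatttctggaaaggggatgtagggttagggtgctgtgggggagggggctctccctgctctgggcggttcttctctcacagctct
The promoter of Mrc1 held 3 boxes and those of Aif1, C1qb and C1qc held 1 each. The box of Aif1 began 7 bases before the start and that of C1qb 30 bases before it. The same stretch of Fpr1, Plbd1 and Ear2, which also fell in both genotypes, held 0. A match is a description of the letters only.

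In non-activated cells, 41 of the 45 measured genes were higher on every KO array than on every WT array, and 0 were lower on every KO array. Over all 18560 genes, 16.9% were higher without overlap and 14.8% lower. After 3 h, 33 of the 45 were higher without overlap (11.8% of all genes) and 1, Ccr2, was lower (7.38% of all genes). These shares follow from how the genes were picked and are given as such. The median difference between KO and WT was 1.96 at 0 h and 2.10 at 3 h on the log2 scale, against -0.03 and 0.04 for all genes, and without both 21-week arrays it was 2.10 and 1.66. In all, 32 genes were apart at both times, a count not made over all genes. The heat map of the 45 genes shows WT at 3 h as the lowest group and KO at 0 h as the highest for most of them.

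**Figure D1:**
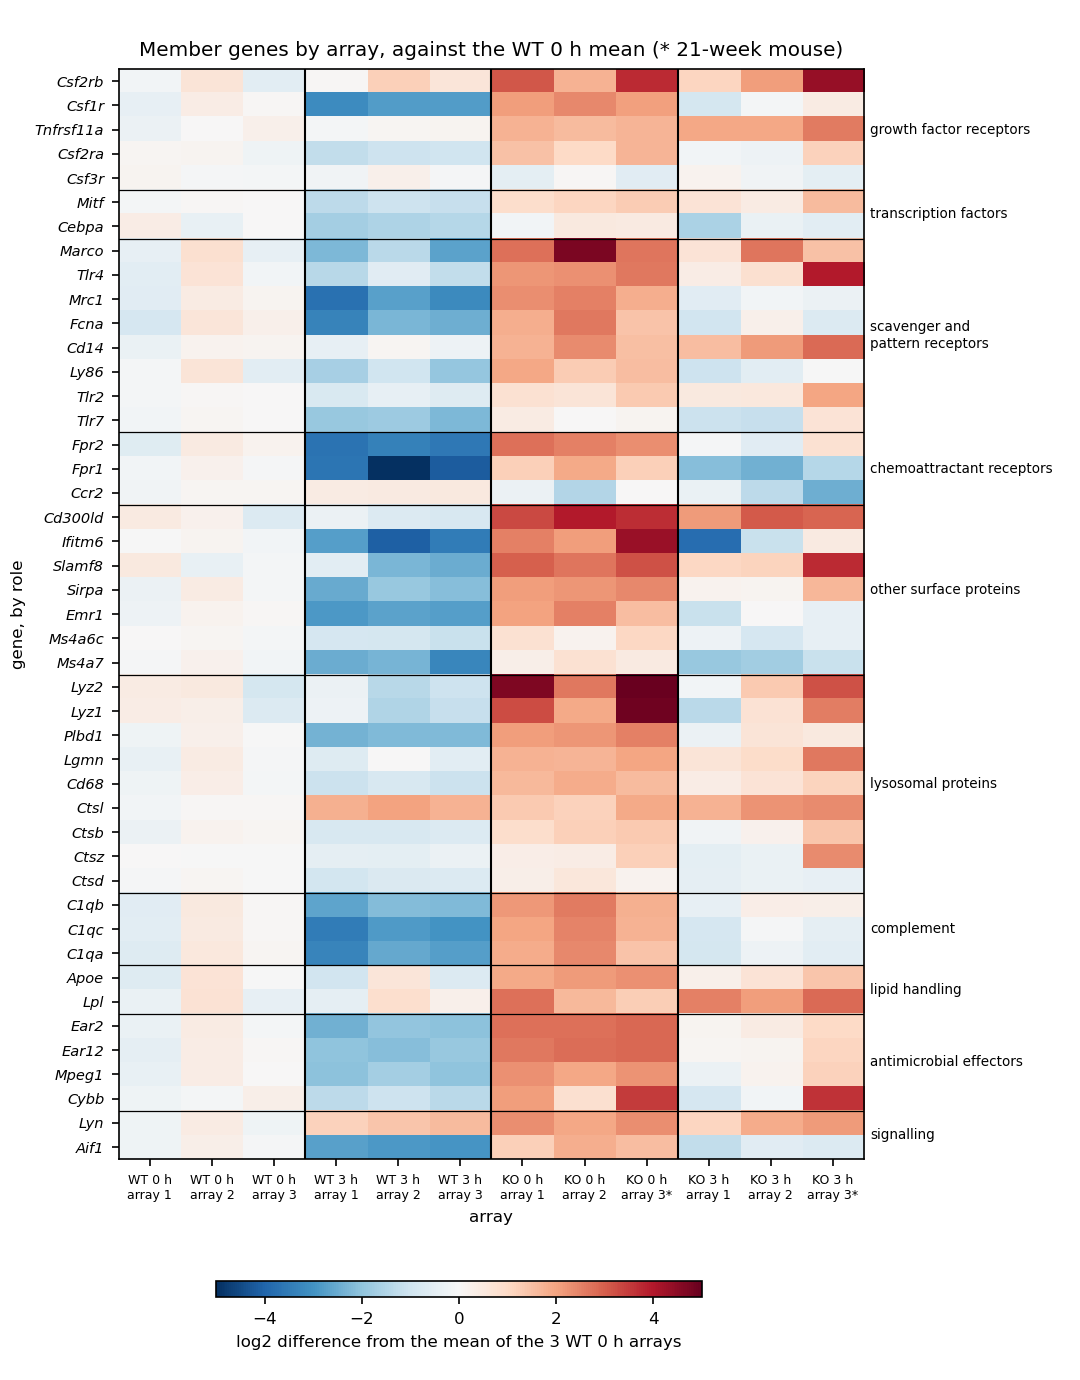
Heat map of the 45 measured genes (rows, by role) on the 12 arrays (columns), as log2 difference from the mean of the 3 WT arrays at 0 h; an asterisk marks the 21-week mice. Most rows are red in KO at 0 h, blue in WT at 3 h and near white on the 10-week KO arrays at 3 h; Csf3r stays near white throughout, and Ctsl and Lyn are red in WT at 3 h.

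Markers of some other cells were also higher in KO, so the macrophage genes were not alone. Of the markers tested at 0 h, 7 of 7 erythroid, 3 of 3 platelet, 6 of 9 dendritic cell and 5 of 6 plasma cell markers were higher in KO without overlap. So were 2 of 7 NK cell, 1 of 3 neutrophil, 1 of 8 Treg and 0 of 9 B cell markers. Lower without overlap were 7 of 10 T cell and 6 of 8 Treg markers. Over all genes the shares were 16.9% higher and 14.8% lower. On the linear scale, where 1 is the 75th percentile signal, erythroid markers summed to 5.98 to 24.8 in WT and 57.4 to 110.4 in KO at 0 h, and dendritic cell markers to 16.6 to 20.2 and 13.0 to 18.7. The dendritic cell sum was mostly the signal of Siglech, whose mean log2 level was 4.16 in WT and 3.85 in KO. In mean, 7 of the 9 dendritic cell markers were higher in KO. T cell markers summed to 165.2 to 190.4 in WT and 48.8 to 145.7 in KO, and Treg markers to 23.5 to 26.9 and 2.65 to 16.7, both lowest on the 21-week array. Neutrophil markers summed to 0.116 to 0.371 in WT and 0.527 to 24.8 in KO, and plasma cell markers to 4.67 to 5.19 and 15.2 to 179.9, both highest on the 21-week array. B cell markers summed to 2.47 to 6.36 in WT and 4.79 to 21.4 in KO, NK cell markers to 2.52 to 3.23 and 2.54 to 8.72, and platelet markers to 0.0332 to 0.0649 and 0.202 to 1.15. Of the markers, 7 of 10 neutrophil and 2 of 5 platelet markers (Ppbp and Gp1bb), and Pax5, Xcr1 and Ncr1 of the B cell, dendritic cell and NK cell lists, did not pass the filter, and the erythroid marker Eraf is not a probe name on the array. The sums of the 45 measured genes were 38.8 to 46.6 in WT and 86.5 to 102.0 in KO. The part of these other cells in the difference was not tested.

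Among growth factor receptors, Csf1r, the receptor that macrophages need to survive, read 1.42, 2.20 and 1.90 in WT and 3.95, 4.25 and 3.88 in KO at 0 h, and -1.30, -0.96 and -0.95 in WT and 0.98, 1.74 and 2.27 in KO at 3 h. Every KO array was above every WT array of its time, by 2.19 on average at 0 h and 2.73 at 3 h, and Csf1r fell on activation in both genotypes. The change was -2.91 ± 0.32 (SE, adjusted p = 0.000318) in WT and -2.36 ± 0.32 (SE, adjusted p = 0.00175) in KO (limma). Csf2ra, the specific chain of the receptor for GM-CSF, also fell, by 1.09 in WT (adjusted p = 0.0383) and 1.15 in KO (adjusted p = 0.0468, limma). Both calls are near the threshold: with no filter on dim probes they were lost (adjusted p = 0.078 and 0.0933), and leaving out 1 array lost the WT call for 6 of 12 arrays and the KO call for 11 (adjusted p up to 0.112 and 0.155). Csf2ra read -0.36, -0.30 and -0.68 in WT and 1.03, 0.56 and 1.26 in KO at 0 h, and -1.69, -1.48 and -1.42 in WT and -0.59, -0.70 and 0.71 in KO at 3 h. Its KO arrays were all above the WT arrays at each time.

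Csf2rb, the chain that the receptor for GM-CSF shares with other cytokine receptors, read -2.53, -1.75 and -2.93 in WT and 0.70, -0.67 and 1.33 in KO at 0 h, and -2.33, -1.21 and -1.78 in WT and -1.32, -0.30 and 1.94 in KO at 3 h. The KO arrays were above WT at 0 h and overlapped WT at 3 h, with the 21-week arrays highest in each. Csf3r, the receptor for the granulocyte growth factor G-CSF, read 3.99, 3.78 and 3.73 in WT and 3.36, 3.88 and 3.28 in KO at 0 h, and 3.66, 4.10 and 3.76 in WT and 4.03, 3.66 and 3.33 in KO at 3 h. It did not separate the genotypes at either time, with differences of -0.33 and -0.17, and it was not called on activation. Tnfrsf11a, the receptor RANK that osteoclast precursors need, was apart at both times (1.67 and 2.10) and not called on activation either.

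Of the transcription factors, Mitf was apart between genotypes and Cebpa was not. Cebpa, a factor of myeloid commitment, read -3.21, -3.97 and -3.58 in WT and -3.73, -3.11 and -3.13 in KO at 0 h, and -5.29, -5.14 and -5.01 in WT and -5.15, -3.92 and -4.11 in KO at 3 h. Its genotypes overlapped at both times, and it fell in WT by 1.56 (adjusted p = 0.0068, limma), while the change in KO was -1.07 ± 0.33 (SE, adjusted p = 0.052). The KO change was called in the deposited table, with no shift between arrays, with quantile normalization, with an age term and under the stricter filter that keeps a probe only if each of the 12 arrays measured it, at adjusted p = 0.0259 to 0.0488. Mitf, a factor of osteoclasts and of lysosomal genes, read -3.94, -3.78 and -3.81 in WT and -2.95, -2.77 and -2.58 in KO at 0 h, and -5.14, -4.87 and -5.01 in WT and -3.17, -3.43 and -2.26 in KO at 3 h. The KO arrays were above WT at both times, and the fall in WT was -1.16 ± 0.27 (SE, adjusted p = 0.00941) against -0.19 ± 0.27 (SE, adjusted p = 0.676) in KO (limma). Without both 21-week arrays the KO change was -0.44 and was called (adjusted p = 0.0335), and with a gene's probes averaged the WT change was -0.86 and was not (adjusted p = 0.098). Spi1 is not a probe name on this array. The array spells it Sfpi1, outside the rule, and that probe read -8.42, -5.81 and -8.00 in WT and -4.89, -5.81 and -3.99 in KO at 0 h, and -7.43, -5.84 and -6.44 in WT and -4.50, -4.48 and -3.75 in KO at 3 h.

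Scavenger and pattern receptors held 8 measured genes, of which 7 were apart and higher in KO at 0 h and 7 at 3 h. Of all genes 16.9% and 11.8% were so, and the counts here follow from how the genes were picked. Mrc1, the mannose receptor, read -3.17, -2.22 and -2.48 in WT and -0.28, -0.12 and -0.82 in KO at 0 h, and -6.36, -5.33 and -5.82 in WT and -3.20, -2.78 and -2.90 in KO at 3 h. It fell in both genotypes, -3.21 ± 0.32 (SE, adjusted p = 0.000231) in WT and -2.55 ± 0.32 (SE, adjusted p = 0.00135) in KO, and the KO arrays at 3 h overlapped the WT arrays at 0 h. Marco, a scavenger receptor of marginal zone macrophages in the spleen, read -3.84, -2.65 and -3.83 in WT and -0.68, 1.25 and -0.75 in KO at 0 h, and -5.70, -4.80 and -6.11 in WT and -2.75, -0.78 and -1.98 in KO at 3 h. Its difference between genotypes was 3.38 and 3.70. It fell in WT (-2.10 ± 0.66 (SE, adjusted p = 0.0379)) and was not called in KO (-1.77 ± 0.66 (SE, adjusted p = 0.0946), limma); the WT call was lost in the deposited table, with quantile normalization, with no shift, with normexp and with no filter, at adjusted p = 0.063 to 0.105, and when any of 5 arrays was left out (up to 0.132).

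The Toll-like receptors differed among themselves. Tlr2, which detects bacterial lipoproteins, read -2.93, -2.76 and -2.80 in WT and -2.09, -2.17 and -1.52 in KO at 0 h, and -3.60, -3.25 and -3.48 in WT and -2.32, -2.30 and -0.87 in KO at 3 h. KO was above WT at both times, and neither activation difference was called; without both 21-week arrays the WT change, -0.61, was called (adjusted p = 0.00176), as it was with an age term (0.0158). Tlr7, an endosomal receptor for single-stranded RNA, read -2.41, -2.16 and -2.26 in WT and -1.85, -2.24 and -2.13 in KO at 0 h, and -4.17, -4.09 and -4.52 in WT and -3.34, -3.42 and -1.60 in KO at 3 h. It overlapped at 0 h and was apart at 3 h, where WT had fallen by 1.98 (adjusted p = 0.00616, limma); in KO the difference was -0.71 ± 0.41 (SE, adjusted p = 0.262). Without both 21-week arrays the KO change was -1.33 and was called (adjusted p = 0.000857), so the missing call in KO rests on the 21-week array at 3 h, the highest KO value there. Tlr4, the receptor for lipopolysaccharide, was apart at both times (2.38 and 2.78). Cd14, its co-receptor, read -4.16, -3.67 and -3.69 in WT and -2.09, -1.48 and -2.34 in KO at 0 h, and -4.24, -3.74 and -4.09 in WT and -2.29, -1.73 and -1.0 in KO at 3 h. The KO arrays were above WT at both times and activation moved Cd14 by only -0.18 ± 0.34 in WT and 0.29 ± 0.34 in KO (SE), neither called. Fcna, a secreted lectin, fell by 2.69 and 2.42, and Ly86, a partner of a Toll-like protein of B cells and macrophages, by 1.52 and 2.13, in WT and KO (adjusted p between 0.00322 and 0.0132, limma).

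The receptors for formyl peptides, bacterial products that attract phagocytes, showed some of the steepest falls. Fpr1 read -2.61, -2.28 and -2.55 in WT and -1.29, -0.57 and -1.30 in KO at 0 h, and -6.12, -7.84 and -6.63 in WT and -4.60, -4.88 and -3.90 in KO at 3 h. It fell by 4.38 in WT (adjusted p = 0.000199) and 3.40 in KO (adjusted p = 0.00124, limma), and 2 of 3 WT arrays at 3 h were still well above background. Fpr2 read -6.54, -5.51 and -5.77 in WT and -3.19, -3.41 and -3.62 in KO at 0 h, and -9.62, -9.32 and -9.50 in WT and -6.01, -6.51 and -5.19 in KO at 3 h. At 3 h it was not well above background on any WT array, so its fall in WT has only a bound. The WT level at 0 h was at least 2.99-fold higher (adjusted p = 0.000205, limma), and KO at 3 h was at least 3.07-fold higher than WT. In KO it was well above background on 2 of 3 arrays at 3 h, and every KO array at 3 h was below every KO array at 0 h. Fpr2 passed the filter only through KO at 0 h, its highest group, so its KO change is given with no test, though counts of genes called in KO include it. Ccr2, the receptor that brings monocytes out of the bone marrow, read -4.16, -3.88 and -3.90 in WT and -4.26, -5.45 and -3.98 in KO at 0 h, and -3.56, -3.53 and -3.49 in WT and -4.32, -5.29 and -6.42 in KO at 3 h. Its mean was lower in KO at both times, as was that of Csf3r: at 3 h every KO array was below every WT array, with a mean difference of -1.81, and its activation differences were not called.

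Of 7 other surface proteins, all 7 were apart and higher in KO at 0 h and 5 at 3 h. Again 16.9% and 11.8% of all genes were so, and the counts follow from how the genes were picked. Emr1, now Adgre1, a classical surface marker of tissue macrophages, read -2.39, -1.96 and -2.09 in WT and -0.15, 0.38 and -0.61 in KO at 0 h, and -5.02, -4.83 and -4.91 in WT and -3.26, -2.14 and -2.57 in KO at 3 h. It fell by 2.77 in WT (adjusted p = 0.000362) and by 2.53 in KO (adjusted p = 0.00116, limma), with no overlap between times. Sirpa, an inhibitory receptor for CD47, read -1.66, -0.97 and -1.45 in WT and 0.74, 0.84 and 1.05 in KO at 0 h, and -3.89, -3.26 and -3.48 in WT and -1.19, -1.23 and 0.32 in KO at 3 h. It fell in both genotypes, -2.19 ± 0.39 (SE, adjusted p = 0.00292) and -1.58 ± 0.39 (SE, adjusted p = 0.0217), the KO call being lost when any of 3 arrays was left out (adjusted p up to 0.0794), and the 21-week array at 3 h stood above the 10-week arrays. Slamf8, a receptor of activated myeloid cells, read -6.20, -7.03 and -6.78 in WT and -3.67, -3.99 and -3.48 in KO at 0 h, and -7.20, -8.96 and -9.16 in WT and -5.64, -5.56 and -2.95 in KO at 3 h. Only 1 of 3 WT arrays at 3 h was well above background, the genotypes were apart at both times, and neither activation difference was called. Without both 21-week arrays the change was -1.77 in each genotype and was called (adjusted p = 0.0149 in WT and 0.0407 in KO), and with an age term the WT change was called (0.03).

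Ifitm6, of the interferon-induced transmembrane family, read -4.98, -4.82 and -5.09 in WT and -2.45, -2.88 and -0.64 in KO at 0 h, and -7.72, -9.03 and -8.47 in WT and -8.77, -6.09 and -4.53 in KO at 3 h. It was not well above background on any WT array at 3 h; the WT level at 0 h was at least 5.88-fold higher (adjusted p = 0.0205), and the change in KO was -4.48 ± 0.94 (SE, adjusted p = 0.0109) (limma). In KO at 3 h it was well above background on 2 of 3 arrays, so the size of the KO fall is uncertain. The WT call was lost with normexp (adjusted p = 0.0976) and when any of 5 arrays was left out (up to 0.0719). The highest KO array at each time was the 21-week one. Ms4a7, a membrane protein of macrophages, read -2.20, -1.93 and -2.30 in WT and -1.84, -1.37 and -1.70 in KO at 0 h, and -4.64, -4.46 and -5.42 in WT and -4.02, -3.87 and -3.25 in KO at 3 h. It fell by 2.69 in WT (adjusted p = 0.000294) and 2.08 in KO (adjusted p = 0.00196, limma), while KO exceeded WT by 0.51 and 1.12. Ms4a6c fell as well, by 0.95 and 1.16 (adjusted p = 0.0136 and 0.00961, limma). Cd300ld, an activating receptor of myeloid cells, had the second largest difference between genotypes at 0 h, 3.65, with -5.13, -5.38 and -6.27 in WT and -2.29, -1.61 and -1.91 in KO, and was not called on activation.

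Lysosomal genes differed among themselves on activation: of 9, 3 fell in WT, 3 fell in KO and 1 rose in WT. Of all genes, 16.6% fell in WT, 9.8% fell in KO and 13.3% rose in WT. Lyz2, the lysozyme of macrophages, read -5.14, -5.09 and -6.45 in WT and -0.89, -2.93 and -0.61 in KO at 0 h, and -5.83, -6.95 and -6.59 in WT and -5.71, -4.26 and -2.39 in KO at 3 h. It had the largest genotype difference at 0 h, 4.08, but also a wide spread within KO, and neither activation difference was called (-0.90 ± 0.85 (SE, adjusted p = 0.46) in WT and -2.65 ± 0.85 (SE, adjusted p = 0.0582) in KO, limma). Its KO fall was called without both 21-week arrays (-3.08, adjusted p = 0.0146), with no shift between arrays, with normexp and with an age term (0.0106 to 0.0438). Lyz1, the related lysozyme of Paneth cells, read -5.63, -5.72 and -6.70 in WT and -2.74, -4.14 and -1.17 in KO at 0 h, and -6.29, -7.51 and -7.16 in WT and -7.35, -5.28 and -3.44 in KO at 3 h. It spread in the same way, its KO change was -2.87 and called without both 21-week arrays (adjusted p = 0.0166), and the best alignment of its probe with that of Lyz2 matched 21 of 55 bases. At 3 h Lyz1 was well above background on 2 of 3 arrays in each genotype, so the size of its changes is uncertain. Plbd1, a phospholipase-like lysosomal protein, read -0.46, 0.02 and -0.24 in WT and 1.85, 1.98 and 2.29 in KO at 0 h, and -2.58, -2.43 and -2.42 in WT and -0.51, 0.42 and 0.26 in KO at 3 h. It fell by 2.25 in WT (adjusted p = 0.000342) and 1.98 in KO (adjusted p = 0.00126, limma). Cd68, a glycoprotein of the lysosomal membrane, fell by 1.00 and 0.96, and Ctsd, an aspartic protease, by 0.78 and 0.75 (adjusted p between 0.00335 and 0.0168, limma).

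The cysteine proteases behaved differently. Ctsl, a cysteine protease of the lysosome, read -1.98, -1.79 and -1.79 in WT and -0.54, -0.69 and 0.06 in KO at 0 h, and -0.07, 0.16 and -0.12 in WT and -0.10, 0.39 and 0.52 in KO at 3 h. At 0 h KO was above WT by 1.46 without overlap; at 3 h WT had risen to the KO range and the genotypes overlapped. The rise in WT was 1.84 ± 0.23 (SE, adjusted p = 0.000527), and the difference in KO was 0.66 ± 0.23 (SE, adjusted p = 0.0734) (limma), or 0.76 and called without both 21-week arrays (adjusted p = 0.00965). Ctsb read 1.62, 2.08 and 1.99 in WT and 2.79, 3.09 and 3.19 in KO at 0 h, and 1.11, 1.08 and 1.20 in WT and 1.72, 2.12 and 3.29 in KO at 3 h. Lgmn, an asparagine-specific protease, read -0.12, 0.65 and 0.18 in WT and 1.97, 1.96 and 2.22 in KO at 0 h, and -0.42, 0.24 and -0.28 in WT and 0.87, 1.17 and 2.89 in KO at 3 h. Ctsz read 1.30, 1.25 and 1.25 in WT and 1.60, 1.65 and 2.44 in KO at 0 h, and 0.83, 0.78 and 0.98 in WT and 0.77, 0.93 and 3.65 in KO at 3 h. For Ctsb and Lgmn the KO arrays were above WT at both times, for Ctsz at 0 h only, and the highest array of all 3 genes at 3 h was the 21-week one; none of the 3 was called on activation with all arrays. Without both 21-week arrays, Ctsb fell in WT and in KO (changes of -0.77 and -1.02, adjusted p = 0.00429 and 0.00403), Ctsz in WT and in KO (-0.40 and -0.77, adjusted p = 0.00559 and 0.000876) and Lgmn in KO (-0.95, adjusted p = 0.0272, limma).

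The 3 chains of C1q, which starts the classical complement pathway, lie side by side on chromosome 4 and moved together. C1qa read -1.52, -0.37 and -0.78 in WT and 0.95, 1.51 and 0.54 in KO at 0 h, and -4.21, -3.44 and -3.65 in WT and -1.79, -1.14 and -1.41 in KO at 3 h. C1qb read -2.10, -1.04 and -1.48 in WT and 0.61, 1.06 and 0.23 in KO at 0 h, and -4.17, -3.72 and -3.76 in WT and -1.94, -1.19 and -1.26 in KO at 3 h. C1qc read -1.34, -0.36 and -0.74 in WT and 1.16, 1.65 and 0.91 in KO at 0 h, and -4.32, -3.64 and -3.79 in WT and -1.67, -0.88 and -1.27 in KO at 3 h. All 3 were apart between genotypes at both times, and the KO arrays at 3 h overlapped the WT arrays at 0 h. The falls were 2.87, 2.34 and 3.1 in WT (adjusted p = 0.000512, 0.00086 and 0.000256) and 2.45, 2.10 and 2.51 in KO (adjusted p = 0.0024, 0.00305 and 0.00139, limma). The 3 probes matched each other at no more than 19 bases in their best alignments.

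The lipid genes Apoe and Lpl were apart between genotypes at 0 h. Apoe, the lipoprotein component, read 0.33, 1.65 and 0.94 in WT and 2.88, 3.09 and 3.26 in KO at 0 h, and 0.02, 1.57 and 0.28 in WT and 1.22, 1.64 and 2.38 in KO at 3 h. The KO arrays were above WT at 0 h and overlapped at 3 h. Lpl, lipoprotein lipase, read -4.67, -3.61 and -4.77 in WT and -1.59, -2.74 and -3.10 in KO at 0 h, and -4.79, -3.53 and -4.10 in WT and -1.83, -2.25 and -1.53 in KO at 3 h. Its KO arrays were above WT at both times, and neither gene was called on activation (-1.33 ± 0.46 (SE, adjusted p = 0.0753) for Apoe in KO, limma). The KO change of Apoe was called, near the threshold, with quantile normalization, with no shift, in the deposited table, without both 21-week arrays and with an age term (adjusted p = 0.0352 to 0.0498).

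Cybb, the catalytic subunit of the phagocyte oxidase, read -5.27, -5.14 and -4.75 in WT and -2.95, -4.26 and -1.57 in KO at 0 h, and -6.35, -6.09 and -6.39 in WT and -5.90, -5.20 and -1.42 in KO at 3 h. The KO arrays were above WT at both times, and the 21-week arrays were above the other KO arrays. Without them it fell on activation in both genotypes (changes of -1.22 and -1.94, adjusted p = 0.0155 and 0.00631, limma), calls that were not made with them. Mpeg1, a pore-forming protein of phagocytes, fell by 1.91 and 1.81 (adjusted p = 0.00286 and 0.00691, limma). Ear2, a ribonuclease of the eosinophil-associated family, read -2.71, -1.94 and -2.46 in WT and 0.38, 0.40 and 0.50 in KO at 0 h, and -4.75, -4.33 and -4.41 in WT and -2.25, -1.95 and -1.36 in KO at 3 h. Ear12 read -5.22, -4.38 and -4.70 in WT and -2.14, -1.96 and -1.91 in KO at 0 h, and -6.80, -6.90 and -6.67 in WT and -4.68, -4.62 and -3.70 in KO at 3 h. Both were apart at both times and fell in both genotypes, Ear2 by 2.13 in WT and 2.28 in KO and Ear12 by 2.02 and 2.33 (adjusted p between 0.000502 and 0.00116, limma). Their probes start 220 bases apart on chromosome 14 (mm9) in a family of near-identical copies, so they may read the same transcript and are uncertain as separate genes.

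Aif1, an actin-binding protein of macrophages and microglia, read -1.36, -0.84 and -1.21 in WT and 0.07, 0.69 and 0.41 in KO at 0 h, and -3.86, -4.00 and -4.09 in WT and -2.37, -1.70 and -1.83 in KO at 3 h. It had the largest test statistic of the 45 genes in both genotypes, with -2.84 ± 0.23 (SE, adjusted p = 0.000102) in WT and -2.36 ± 0.23 (SE, adjusted p = 0.000381) in KO (limma). Lyn, a kinase of the Src family in myeloid and B cells, read -6.60, -6.00 and -6.62 in WT and -4.10, -4.48 and -4.10 in KO at 0 h, and -5.26, -5.04 and -4.84 in WT and -5.34, -4.57 and -4.28 in KO at 3 h. At 0 h KO was above WT by 2.18 without overlap; at 3 h WT had risen by 1.36 ± 0.29 (SE, adjusted p = 0.00638, limma) and the genotypes overlapped. With normexp background correction the rise was 0.57 and was not called (adjusted p = 0.0531).

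**Figure D2:**
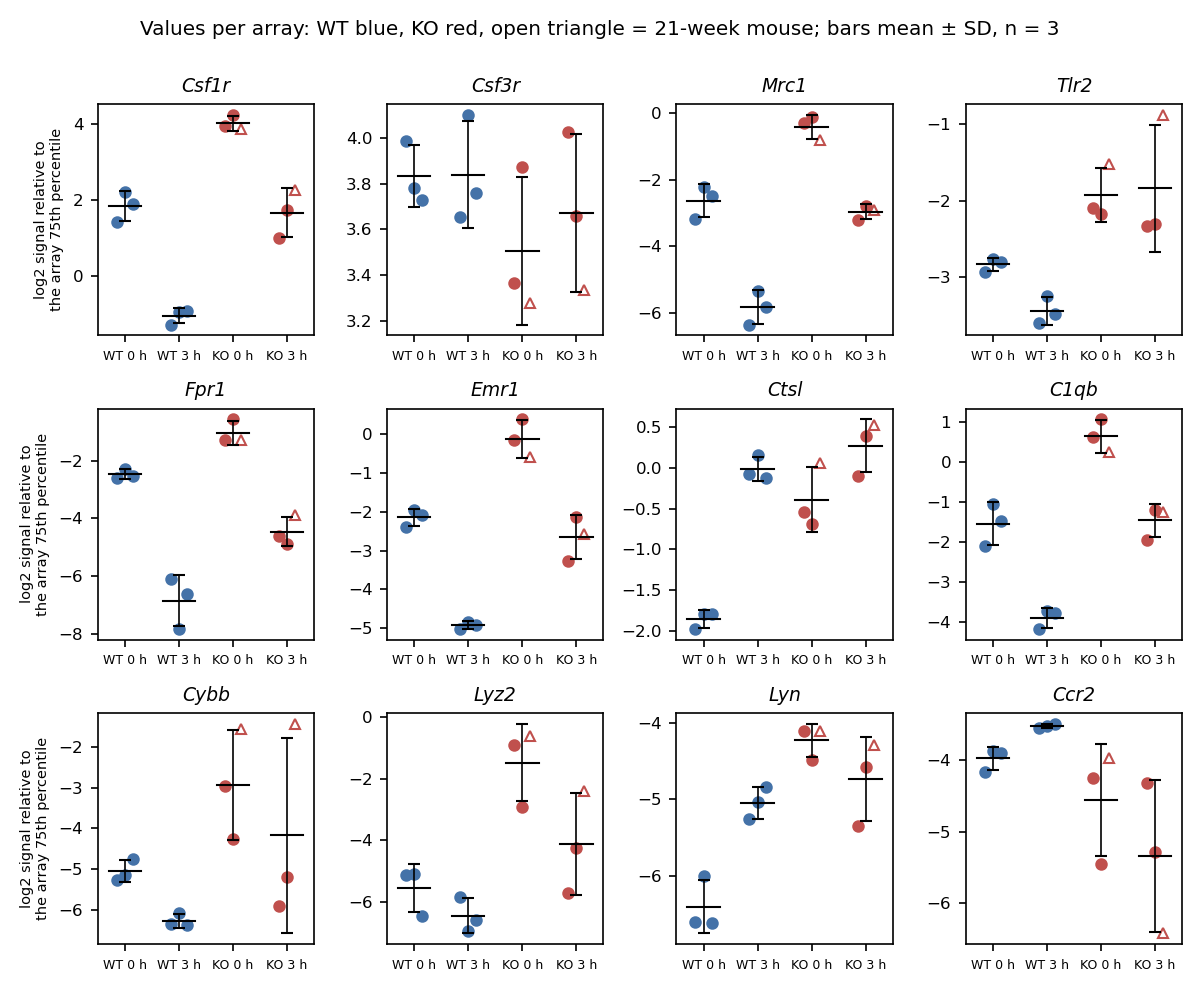
Level of 12 of the genes on each array (log2 signal relative to the array's 75th percentile), by group, with WT in blue, KO in red, open triangles for 21-week mice, and bars for the mean ± SD of 3 arrays. Csf1r, Mrc1, Fpr1, Emr1 and C1qb are lower at 3 h than at 0 h in each genotype, Ctsl and Lyn are higher at 3 h in WT, and the open triangles are the highest KO points for Cybb and Tlr2.

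Across the 45 genes, 26 were lower and 2 higher at 3 h than at 0 h in WT (limma, Benjamini-Hochberg adjusted p under 0.05), and 17 were not called. Of all genes, 16.6% were lower and 13.3% higher. In KO 22 were lower and 0 higher, against 9.8% lower and 7.38% higher of all genes. The 22 include Fpr2, which passed the filter only through KO at 0 h, so its place among them is no evidence of a fall. An unadjusted p under 0.05 in KO, in either direction, was found for 30 of the 45, against 5998 of all 18560 genes. Without the 21-week array at 3 h, 34 fell in KO, against 3756 of all 18560 genes. Without both 21-week arrays 32 fell in WT, and in KO 33 fell and 1, Ctsl, rose. Of all genes 5870 then fell in WT, and in KO 4817 fell and 3756 rose, so calls grew over all genes too. The median change was -1.22 in WT and -1.25 in KO, against -0.14 and -0.04 for all genes. Of the 39 genes well above background on all 12 arrays, 23 fell in WT and 19 in KO. The 22 genes called lower in KO were 22 of the 26 called lower in WT; the other 4 were Cebpa, Marco, Mitf and Tlr7. Of these, Mitf and Tlr7 were called in KO without the 21-week arrays and Cebpa under the alternatives given above. The plot of both changes shows most genes near the line of equal change.

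**Figure D3:**
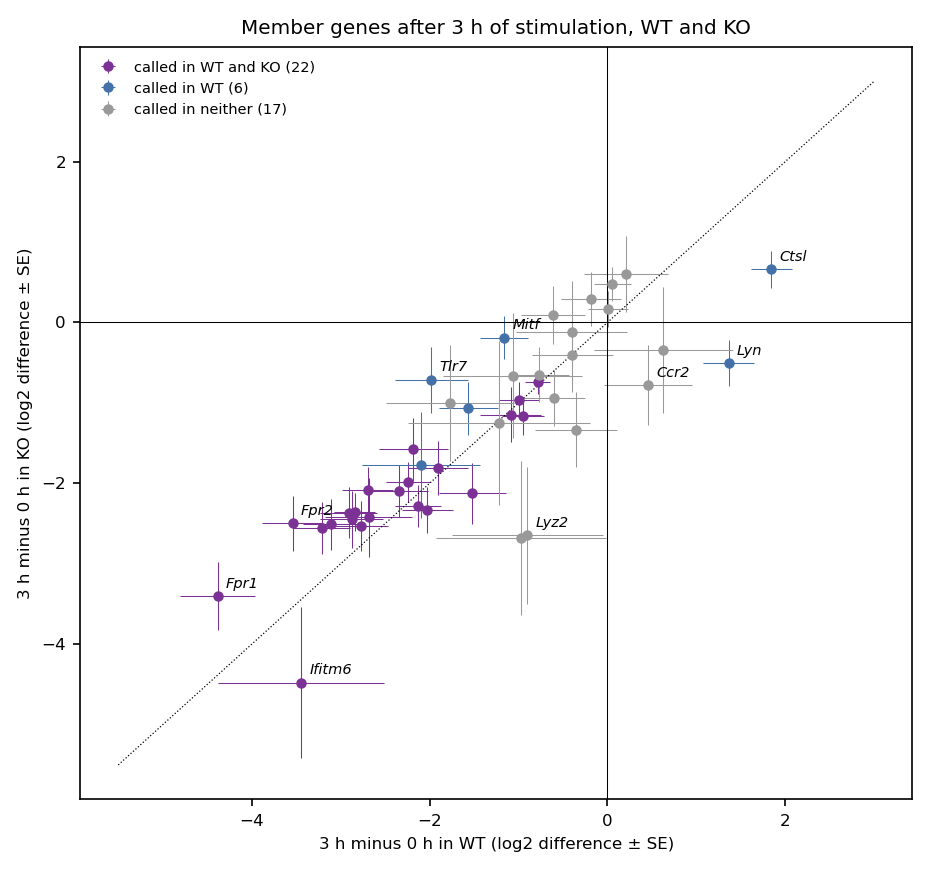
Change from 0 h to 3 h of each of the 45 genes in WT (horizontal) and KO (vertical), as log2 difference ± SE, with the dotted line for equal change. The 22 genes called in both, Fpr2 included, lie at the lower left, between -0.75 for Ctsd and -4.48 for Ifitm6 in KO. Ctsl and Lyn lie to the right, at 1.84 and 1.36 in WT.

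The difference between both activation effects was called for 0 of 45 genes and for 0 of all 18560 (0.0% in each direction). At an unadjusted p under 0.05 there were 688 of all genes and 3 of the 45, which are Lyn, Ctsl and Mitf. The largest differences were those of Lyn, -1.87 ± 0.40 (SE, adjusted p = 0.758), and Lyz2, -1.74 ± 1.20 (limma). Markers of some other cells fell on activation too, against 16.6% of all genes in WT and 9.8% in KO. In each genotype 4 of 9 dendritic cell and 2 of 9 B cell markers fell. The dendritic cell markers that fell include Clec9a, which passed the filter only through KO at 0 h. Clec9a was not well above background on any WT array, so its place among them is no evidence of a fall. Of NK cell markers 3 of 7 fell in WT and 2 of 7 in KO. Of 10 T cell markers 1 fell in WT and 0 in KO, and of 8 Treg markers 2 fell in WT and 0 in KO. The Treg markers that fell include Gpr83, which passed the filter only through WT at 0 h, so its call is no evidence of a fall. Of the erythroid, plasma cell, neutrophil and platelet markers, 0 fell in either genotype. Of the same lists, 2 dendritic cell markers (Zbtb46 and Ly75) rose in WT, and Zbtb46 and the T cell marker Cd28 rose in KO. Ly75 passed the filter only through WT at 3 h, so its call is no evidence of a rise. The Treg marker Ctla4 rose in both. The part of these cells in the falls was not tested.

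A wider list of 50 macrophage genes that are not among the 51 had 48 measured. Their median, relative to the WT mean at 0 h, was 1.60 to 1.78 on the KO arrays at 0 h, -1.19 to -0.90 on the WT arrays at 3 h and 0.08 to 1.23 on the KO arrays at 3 h. On activation 20 of the 48 fell and 3 rose in WT, and 16 fell and 2 rose in KO (limma). Of all genes, 16.6% fell and 13.3% rose in WT, and 9.8% fell and 7.38% rose in KO. Emr4, a relative of Emr1, fell by 3.02 in WT and 3.19 in KO (adjusted p = 0.00103 and 0.00189), and Siglec1, a sialic acid receptor of marginal metallophilic macrophages, fell by 3.21 in WT and fell by 3.63 in KO (adjusted p = 0.00575 and 0.0062, limma). Vcam1, an adhesion molecule of splenic macrophages and stroma, fell by 2.62 and 1.96 (adjusted p = 0.00158 and 0.0109, limma). The 3 that rose in WT were Klf4, Lamp2 and Il1b, and the 2 that rose in KO were Lgals3 and Il1b; Il1b, Lamp2 and Lgals3 are named after their values were seen. Between genotypes, 13 of the 48 were called higher in KO at 0 h and 15 at 3 h and 0 lower, against 1.82% and 1.26% of all genes called higher and 0.259% and 0.189% called lower. This list was written with results of these arrays known, so its direction is not independent evidence.

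Within KO, the 21-week arrays were compared with the 10-week arrays over both times in a model with an age term. Of the 45 genes, 14 were higher and 0 lower (limma), a share of 31.1% higher. An unadjusted p under 0.05 in either direction was found for 18, against 10208 of all 18560 genes. The share of all genes that were higher was of similar size, 23.1%, so the count of higher genes is not a result about these genes. Of all genes 24.9% were lower, against 0 of the 45, a count that changed with the processing. The 8 with the largest test statistic were Cybb, Tlr2, Ctsz, Csf2ra, Lyz1, Ifitm6, Csf2rb and Mitf. Cybb was higher by 3.09 ± 0.48 (SE, adjusted p = 0.000872), Ctsz by 1.81 ± 0.34 (SE, adjusted p = 0.0024), Tlr2 by 1.02 ± 0.18 (SE, adjusted p = 0.00175) and Csf2rb by 2.03 ± 0.54 (SE, adjusted p = 0.013) (limma). Lyz1 was higher by 2.57 and Lyz2 by 1.95 (adjusted p = 0.00856 and 0.0396, limma). In 18 of the 45 genes the 21-week array was the highest of the 3 KO arrays at both times, a count not made over all genes.

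Among the 31 genes not called between the ages were C1q, Mrc1, Emr1, Marco and Csf1r, which form no list fixed beforehand. Of the wider list of macrophage genes, 20 of 48 (41.7%) were higher and 2 (4.17%) lower (limma), against 23.1% and 24.9% of all genes. With no shift between arrays, where the median of all genes was -0.72, C1qa, C1qc, Mrc1 and Emr1 were called lower (-1.01, -0.94, -0.95 and -0.98, adjusted p = 0.0341 to 0.04996), and Emr1 also without KO array 1 at 3 h (0.041). C1qa, C1qb and C1qc differed by -0.32, -0.14 and -0.25, Mrc1 by -0.26, Emr1 by -0.29, Marco by -0.63 and Csf1r by 0.34. Of the 14 higher genes, 9 were called in neither activation comparison and 3 (Csf2ra, Sirpa and Ifitm6) fell on activation in both genotypes. The activation model had no age term, so a difference between ages widened its error in both genotypes. The count of 9 therefore cannot tell whether these genes respond to activation. Of these, Cybb, Ctsb and Ctsz were called lower in both genotypes, with the same WT differences, without the older KO arrays. On the same arrays 10 of 10 T cell markers were lower, 6 of 6 plasma cell, 3 of 3 neutrophil and 6 of 7 NK cell markers higher (limma), and neutrophil markers summed to 24.8 and 11.7 against 0.106 to 0.939 on the 10-week arrays. Their part in these differences was not tested. The comparison rests on 2 arrays that may share 1 mouse: without the array at 3 h, 4 of the 45 were higher, without KO array 1 at 3 h 8, and with no shift between arrays 4 were higher and 6 lower, against 12 and 2 with quantile normalization. Of all genes, 2925 and 3784 were higher without these arrays. With no shift 1732 of all genes were higher and 10498 lower, against 3845 and 5876 with quantile normalization.

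**Figure D4:**
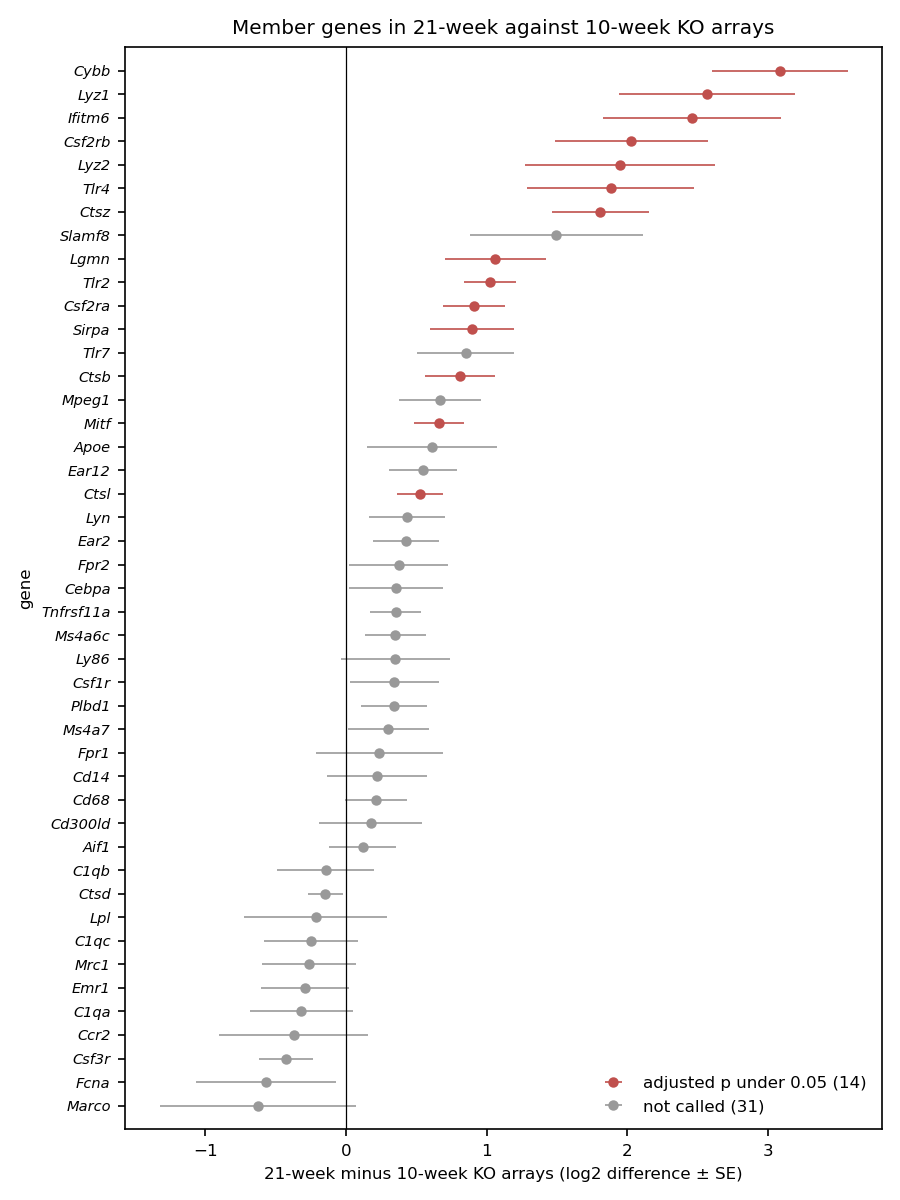
Difference between 21-week and 10-week KO arrays for each of the 45 genes (log2 difference ± SE from the model with an age term), sorted; red marks the 14 with an adjusted p under 0.05. Cybb is at the top, at 3.09, while the C1q genes, Mrc1, Emr1 and Marco lie below 0 and were not called in this fit.

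Of the 6 listed genes that were not measured, Spi1 is described with the transcription factors and 5 had probes that failed the rule. Timd4, a receptor for phosphatidylserine of resident macrophages, read -8.62, -9.05 and -7.05 in WT and -6.25, -5.77 and -7.70 in KO at 0 h, and -9.60, -9.25 and -9.49 in WT and -7.75, -8.59 and -8.11 in KO at 3 h. Gpnmb, a glycoprotein of lipid-laden macrophages, read -7.12, -7.54 and -7.76 in WT and -7.85, -6.65 and -6.26 in KO at 0 h, and -7.60, -7.37 and -7.50 in WT and -9.10, -7.52 and -4.42 in KO at 3 h. Trem2, a lipid-sensing receptor, read -9.11, -9.17 and -9.51 in WT and -5.88, -7.47 and -4.06 in KO at 0 h, and -9.27, -6.83 and -9.61 in WT and -8.93, -7.89 and -5.24 in KO at 3 h. These 3 were the nearest misses, well above background on 2 of 3 KO arrays at 0 h. Msr1, a scavenger receptor, had 2 probes, of which the first read -9.16, -9.04 and -8.85 in WT and -8.29, -7.79 and -7.01 in KO at 0 h, and -9.59, -9.27 and -7.90 in WT and -8.75, -8.54 and -8.09 in KO at 3 h and was not well above background on any array; the other was so on 1. Folr2, a folate receptor, was well above background on 1 array. For 9 genes, 2 or more probes passed, and their changes had the same sign except for Mitf in KO on activation, at -0.19 and 0.02. Just inside the rule lay Fpr2, which was above background on all 3 KO arrays at 0 h and in no other group on more than 2.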

How the data were processed

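RNA of sorted splenic Treg was labelled with Cy3 and read on 12 arrays of a mouse Agilent design, 3 in each of 4 groups. The deposited scanner files hold spot intensity on a linear scale, made by Agilent's Feature Extraction software (11 in the submitters' processing notes, but 10.7.3.1 in the headers of all 12 files), background-subtracted and spatially detrended per the file headers and not scaled between arrays. The authors also deposited a table of log2 values of the same arrays, with a median of 3.89 on every array; how it was scaled and centred was taken from its values alone, no step behind it is named here except Partek, per the submitters' processing notes, and it served as an alternative. The RNA input was 20 ng for sample 1 at 0 h and 40 ng for the others, per the labels' protocols.

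Control and outlier spots were left out, spots of a probe averaged, and log2 signal shifted by its 75th percentile over 19799 probes that stood well above background on each of the 12 arrays. Between 43.1% and 54.6% of probes were well above background on an array, 0 probes were saturated, and the number of arrays limits the precision. Each gene was represented by its brightest probe that passed the filter. Levels of different genes were not compared. Probes were named as in the files (coordinates mm9); of 63 probes of listed genes 58 matched RefSeq by accession, and 58 name the same gene today.

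The test was limma's moderated statistic (version 3.58.1 under R 4.3.3, two-sided) in 1 model of 4 group means with 8 residual degrees of freedom, and with an age term, 7. P-values were adjusted by Benjamini-Hochberg over all 18560 genes, threshold 0.05. The fit was tested on simulated data. "Well above background" is the scanner's flag. An at-least fold sets the brighter mean against, per array, the higher of the dim probe and the lowest signal well above background. Alternatives were another percentile, quantile normalization, no shift, normexp, the deposited table, other filters, probe means, every probe apart, leaving out arrays and an age term.

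The genes, their roles and the other lists were chosen with earlier results of these data known. Named genes were a fixed set by role, the 10 called with the largest statistic in each activation comparison, the 8 called between ages, and from the wider list those with the largest statistic on activation.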

Additional observations from a re-analysis of the deposited data

How the results depend on the processing

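On activation, the count of the 45 genes that fell ran from 21 to 30 in WT and from 19 to 34 in KO when 1 array was left out, and the counts that rose stayed at 2 in WT and ran from 0 to 1 in KO. In the same fits the count of all genes that fell ran from 2003 to 4278 in WT and from 1019 to 3756 in KO. In KO 1 gene rose without both 21-week arrays, and 1 with an age term; in WT 1 rose with normexp. The median difference between KO and WT at 0 h was 1.77 with the percentile over all probes, 1.59 with normexp and 2.10 without both 21-week arrays, and ran from 1.71 to 2.15 when 1 array was left out; at 3 h it ran from 1.66 to 2.47. Between the ages, the count lower was 2 with quantile normalization, 2 in the deposited table and 6 with no shift, the count higher was 4 with no shift, and leaving out 1 array gave 0 to 1 lower and 4 to 18 higher. With no shift, where the median of all genes moved from -0.03 to -0.72, Mitf (-0.029, adjusted p = 0.909) and Ctsl (-0.16, adjusted p = 0.495) changed sign in that comparison (limma); the cause was not tested. Over all genes, activation in KO was called higher in 1370 and lower in 1819, against 269 and 2197 with no shift and 1644 and 1382 with normexp, and age in 4283 and 4620, against 1732 and 10498 and 6541 and 3422. Of 51 calls of named genes, 50 were kept with the percentile over all probes, 48 with quantile normalization, 48 in the deposited table, 48 with normexp, 47 with no filter and 41 with no shift. The difference between activation effects was called for 0 of the 45 under every alternative run. No paired analysis was possible because no label gives a mouse or replicate number that ties arrays across groups. Probes near background, such as Fpr2 and Ifitm6 in WT at 3 h, have only a bound.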
